A study of Homo sapiens with 12 samples.

Results

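The 84 cytosolic ribosomal protein genes were examined in 12 RNA-seq libraries. They were picked by symbol, with earlier results of these data known. They are the rows of both expression tables that carry the standard names of the small subunit (RPS and RPSA, 32 genes) or the large subunit (RPL and RPLP0 to RPLP2, 52 genes). Each table holds 18665 genes, and all 84 members were above the filter on low values in the CM10 experiment and 83 in the shZBTB7B experiment. All libraries carry the label HT29, a human colon carcinoma cell line. CM10 libraries were from HT29 treated with CM10, which inhibits the ALDH1A family of aldehyde dehydrogenases, and CTRL_CM10 libraries were the controls of that exposure. The shZBTB7B libraries were from HT29 with a short hairpin RNA against the transcription factor ZBTB7B, and CTRL_shZBTB7B libraries were the controls of the hairpin. Each group had 3 libraries, and the labels give neither dose, time nor clone. The labels do not say whether replicates were separate cultures, and a p-value therefore reflects the spread among these libraries alone, which could be technical. The comparisons ask how the ribosomal protein mRNAs stood after inhibition of ALDH1A and after knockdown of ZBTB7B.

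Cytosolic ribosomes translate the mRNAs of the nuclear genome, and each ribosome joins a small subunit, which decodes the mRNA, to a large subunit, which forms the peptide bond. The ribosomal proteins are made in near equal numbers, and their mRNAs are short, abundant and expressed in every growing cell. Many of these mRNAs start with a cytosine followed by a run of pyrimidines, the 5′ terminal oligopyrimidine (TOP) tract, through which the mTOR pathway controls their translation together.

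The first bases of the annotated transcript were examined for 67 members with an entry among the RefSeq promoters (assembly GRCh38.p14). A TOP-like start was scored, on the transcribed strand only, where the first base was C and at least 5 bases from the start were pyrimidines. It was present in 47 of the 67 members (70.15%), against 945 of 14410 genes of the tables (6.56%) and 6 of 69 mitochondrial ribosomal protein genes (8.7%). The longest run in a member was 19 bases. The sequences below are shown because these genes carry the results. RPS28, RPS3, RPS23, RPL29, RPL38 and RPL22L1 are the members called lower with CM10 that have an entry, all but RPL23. RPS27 and RPL26 are the abundant partners of 2 paralogues, and RPL14, RPS27L, RPL7L1 and RPL26L1 had fold changes with CM10 apart from those of most members. Each line gives 10 bases before and 20 bases from the annotated start, 5′ to 3′, and capitals mark the pyrimidine run.
RPS28: gaagcacgtgactcctctccgccagaccgc
RPS3: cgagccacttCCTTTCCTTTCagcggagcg
RPS23: cggtgcttctCTCTTTCgctcaggcccgtg
RPL29: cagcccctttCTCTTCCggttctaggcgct
RPL38: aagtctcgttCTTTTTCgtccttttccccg
RPL22L1: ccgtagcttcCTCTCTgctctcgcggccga
RPS27: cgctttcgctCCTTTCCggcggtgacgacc
RPL26: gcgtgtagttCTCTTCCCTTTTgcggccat
RPL14: ggtcttcttcCTTCTCgcctaacgccgcca
RPS27L: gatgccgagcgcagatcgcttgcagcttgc
RPL7L1: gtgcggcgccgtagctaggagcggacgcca
RPL26L1: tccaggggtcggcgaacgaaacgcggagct

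In GRCh38.p14 these windows lie at chr19:8321486-8321515 (RPS28, plus strand), chr5:82278335-82278364 (RPS23, minus strand), chr17:74203668-74203697 (RPL38, plus strand), chr11:75399508-75399537 (RPS3, plus strand), chr3:51995876-51995905 (RPL29, minus strand) and chr3:170870176-170870205 (RPL22L1, minus strand). Those of the partners and of RPL14 lie at chr1:153990752-153990781 (RPS27, plus strand), chr17:8383174-8383203 (RPL26, minus strand) and chr3:40457329-40457358 (RPL14, plus strand). The remaining windows lie at chr15:63157458-63157487 (RPS27L, minus strand), chr6:42879606-42879635 (RPL7L1, plus strand) and chr5:172958719-172958748 (RPL26L1, plus strand). RPS28, which had the smallest p of the members called lower, has no TOP-like start at this annotated position, and neither have the paralogues RPS27L, RPL7L1 and RPL26L1. RPL14 and RPL22L1 have one of 6 bases. A match is a description of the letters at 1 annotated start and no measure of translation.

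The libraries differed from each other in composition, and this bears on every value below. Levels are TPM, which corrects for transcript length and scales every library to 1000000, so the depth is unknown and a gene that takes much of a library lowers all others in it. The MTRNR2L genes, which resemble the mitochondrial ribosomal RNA gene, held 5.62%, 73.8% and 46.0% of TPM in the 3 CTRL_CM10 replicates and 0.283% to 2.78% in CM10. They held 0.309%, 29.9% and 0.914% in shZBTB7B and 2.44% to 10.4% in CTRL_shZBTB7B. The number of genes above 0 was 13051, 8493 and 9400 in CM10 replicates 1 to 3 and 13237 to 14627 in CTRL_CM10. It was 9597, 14354 and 10738 in shZBTB7B and 15969 to 16245 in CTRL_shZBTB7B. The part of these numbers in the results was not tested. The colon epithelial markers, 16 genes, summed to 44.5 to 112 TPM in CM10, 58.4 to 1585 in CTRL_CM10, 454 to 2404 in shZBTB7B and 68.2 to 2360 in CTRL_shZBTB7B. CDX2, the transcription factor that defines intestinal epithelium, was listed at 0 in 8 of 12 libraries, while the keratin KRT8 was above 0 in all 12. The smooth muscle markers, 8 genes, summed to 74.0 to 7061 TPM in CM10, 174 to 2391 in CTRL_CM10, 199 to 462 in shZBTB7B and 493 to 50797 in CTRL_shZBTB7B. The gastric markers, 10 genes, summed to 498 to 4945, 122 to 67603, 167 to 77129 and 5.82 to 1193 TPM in the same order. The fibroblast and endothelial markers, 9 genes, summed to 26.0 to 303, 125 to 6085, 55.1 to 330.0 and 1615 to 3645 TPM. The B and plasma cell markers, 6 genes, summed to 8.66 to 66.0, 300.5 to 554, 51.1 to 3214 and 6.41 to 1710 TPM, and the T cell markers, 5 genes, to 19.2 to 62.7, 7.77 to 70.4, 36.7 to 42.4 and 15.8 to 1181 TPM. In CM10 the T cell sum was mostly CD3G, at 14.6, 62.7 and 39.4 TPM, with CD3D and CD8A listed at 0 in all 3 libraries. In shZBTB7B replicate 3 CD3G, at 36.7 TPM, was the only one of the 5 above 0. These levels go against the label of a single epithelial line, and the part of the marker genes in the results was not tested. In bulk libraries, fewer cells of a type and less RNA per cell cannot be told apart. ZBTB7B itself was at 2.55, 5.97 and 0 TPM in shZBTB7B against 22.3, 25.1 and 25.4 TPM in CTRL_shZBTB7B, a log2 fold change of −3.11 (SE 0.93, limma adjusted p = 0.058).

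Together the 84 members took a smaller part of every CM10 library than of any of its controls. Their summed level was 30928, 32624 and 10818 TPM in CM10 replicates 1 to 3. In CTRL_CM10 it was 364784, 71407 and 132176 TPM, so the groups did not overlap, although the controls themselves spread widely. In shZBTB7B the sum was 77406, 214477 and 86962 TPM, and in CTRL_shZBTB7B it was 291947, 198724 and 182290 TPM. Replicate 2 of shZBTB7B lay inside the range of its controls and the other 2 libraries lay below it. As a share of all TPM, the members held 2.48% ± 1.21 in CM10, 18.9% ± 15.5 in CTRL_CM10, 12.6% ± 7.65 in shZBTB7B and 22.4% ± 5.91 in CTRL_shZBTB7B (mean ± S.D., n = 3 each). With the MTRNR2L genes removed before scaling, the shares became 2.52% ± 1.25, 30.1% ± 7.51, 15.7% ± 12.9 and 24.0% ± 7.48. Among the 100 genes with the highest TPM of a library, 1 was a member in each CM10 library and 52 to 62 in CTRL_CM10. For shZBTB7B replicates 1 to 3 the number was 14, 57 and 16, and for CTRL_shZBTB7B it was 48 to 60.

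**Figure D1:**
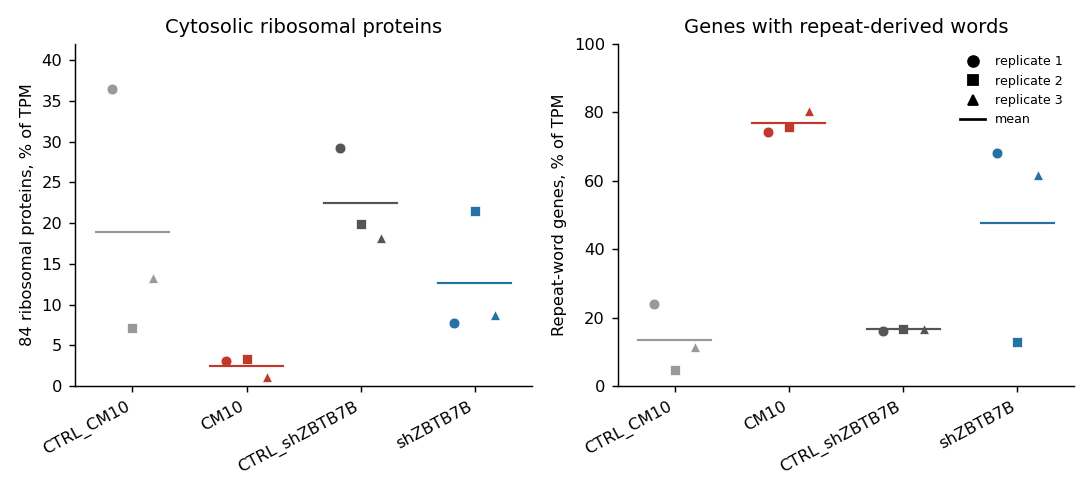
The left panel plots the summed level of the 84 cytosolic ribosomal proteins as a percent of TPM in each library. The right panel plots the percent of TPM in genes whose transcripts hold at least 20 words shared by at least 300 genes, labelled repeat-derived words. Symbols are replicates 1 to 3 and lines are group means. The 3 CM10 libraries are the lowest on the left and the highest on the right, and shZBTB7B replicate 2 sits near the controls in both panels.

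No member of ordinary abundance was missing from any library. The members listed at 0 were RPL22L1, RPL39L and RPL3L, at most 3 in a library. Of the 78 members with a mean over 100 TPM, 0 were listed at 0 in any library. Of 967 other genes over that mean, 9, 62 and 137 were listed at 0 in CM10 replicates 1 to 3 and 3 to 12 in CTRL_CM10. The number was 63, 4 and 34 in shZBTB7B and 4 to 16 in CTRL_shZBTB7B. The other genes share only the threshold on the mean and were not matched to the members in level, so the numbers are a description.

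In the comparison of CM10 with CTRL_CM10, most members were lower by a similar amount, while few passed the test. The median log2 fold change of the 84 members was −2.99, and the middle of their distribution ran from −3.21 to −2.72 (quartiles). Over all 12529 genes tested the median was −1.0 and the quartiles were −2.14 and 0.83. Of the members, 7 fell and 1 rose at a limma adjusted p under 0.05 (Benjamini-Hochberg over all genes). Of all genes tested, 18.3% were called lower and 13.6% higher, beside 8.33% of the members called lower. In 76 of the 84 members all 3 CM10 libraries lay below all 3 controls, an arrangement found in 28.9% of all genes tested. The standard error of a member was large, with a median of 1.38 on the log2 scale, against 0.91 for all genes.

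RPS28, a small subunit protein near the mRNA exit, was at 91.5, 98.3 and 18.3 TPM in CM10 and at 1603, 377 and 724 TPM in CTRL_CM10. Its log2 fold change was −3.76 (SE 1.21, limma adjusted p = 0.028). RPS3, a protein of the mRNA entry channel that also takes part in DNA repair, was at 124, 135 and 9.05 TPM against 1626, 379 and 736 TPM. The 2 groups did not overlap for either gene, and CM10 replicate 3 was the lowest library for both. The log2 fold change of RPS3 was −3.79 (SE 1.29, adjusted p = 0.034 with limma). RPS23, a protein of the decoding centre, was at 52.4, 74.3 and 10.1 TPM against 875, 134 and 242 TPM, a log2 fold change of −3.11 (SE 1.16, limma adjusted p = 0.048). These were the 3 small subunit members called lower.

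On the large subunit, RPL29, also known as a heparin-binding protein, was at 197, 298 and 25.1 TPM in CM10 and at 2944, 839 and 1950 TPM in CTRL_CM10. Its log2 fold change of −3.87 (SE 1.38, limma adjusted p = 0.041) was the lowest value among the 84 members. RPL23, which also binds the p53 regulator MDM2, was at 79.6, 82.1 and 9.58 TPM against 1186, 177 and 332 TPM (log2 fold change −3.32, SE 1.21, adjusted p = 0.044). RPL38, known in the mouse for selective translation of homeobox mRNAs, was at 41.8, 44.8 and 19.0 TPM against 552, 115 and 285 TPM (log2 fold change −2.96, SE 1.07, adjusted p = 0.043). For all of these genes CM10 replicate 3 was again the lowest of the 6 libraries. RPL22L1, the paralogue of RPL22, was of low abundance at 4.43, 0 and 2.02 TPM against 14.2, 18.2 and 9.06 TPM (log2 fold change −2.49, SE 0.91, adjusted p = 0.045). The groups did not overlap for any of the 4 large subunit members called.

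The number of members called lower depended on the scaling and on single libraries. It was 76 with quantile normalization, 78 after removal of the MTRNR2L genes and 77 after removal of all genes over 10000 TPM other than the members, where 14.9%, 42.4% and 32.5% of all genes tested were called lower. RPL22L1 was not called with quantile normalization. Without a filter, and with a pseudocount of 0.1, only RPS28 was called lower, beside 7.81% and 5.71% of all genes. Across these 3 scalings the median of all genes was −0.27, −1.72 and −1.55, and the member median −3.85, −3.94 and −3.57. Without CTRL_CM10 replicate 1 or 2 the number was 20 or 27 (4.57% and 16.0% of all genes), and it was 0 without CM10 replicate 2, CM10 replicate 3 or CTRL_CM10 replicate 3 (6.34%, 8.76% and 7.12% of all genes). In the scalings and filters tried the direction held: 81 of 84 members had a negative fold change in each of them, except when levels were set relative to the members' own total.

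The acidic stalk proteins RPLP0, RPLP1 and RPLP2, which recruit the GTPase translation factors, were lower in every CM10 library without passing the test. RPLP0 was at 378, 275 and 80.3 TPM in CM10 and at 5131, 1336 and 1788 TPM in CTRL_CM10 (log2 fold change −3.50, SE 1.43, limma adjusted p = 0.066). RPLP1 and RPLP2 had log2 fold changes of −2.99 and −3.36. RPSA, the small subunit protein once described as a laminin receptor, was at 226, 163 and 145 TPM against 2258, 741 and 955 TPM, a log2 fold change of −2.73 (SE 1.29, adjusted p = 0.103). Among the most abundant members, RPS27 had a log2 fold change of −3.28, RPL26 of −3.44, RPL41 of −2.87 and RPS24 of −3.23, all with an adjusted p above the threshold and with groups that did not overlap.

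**Figure D2:**
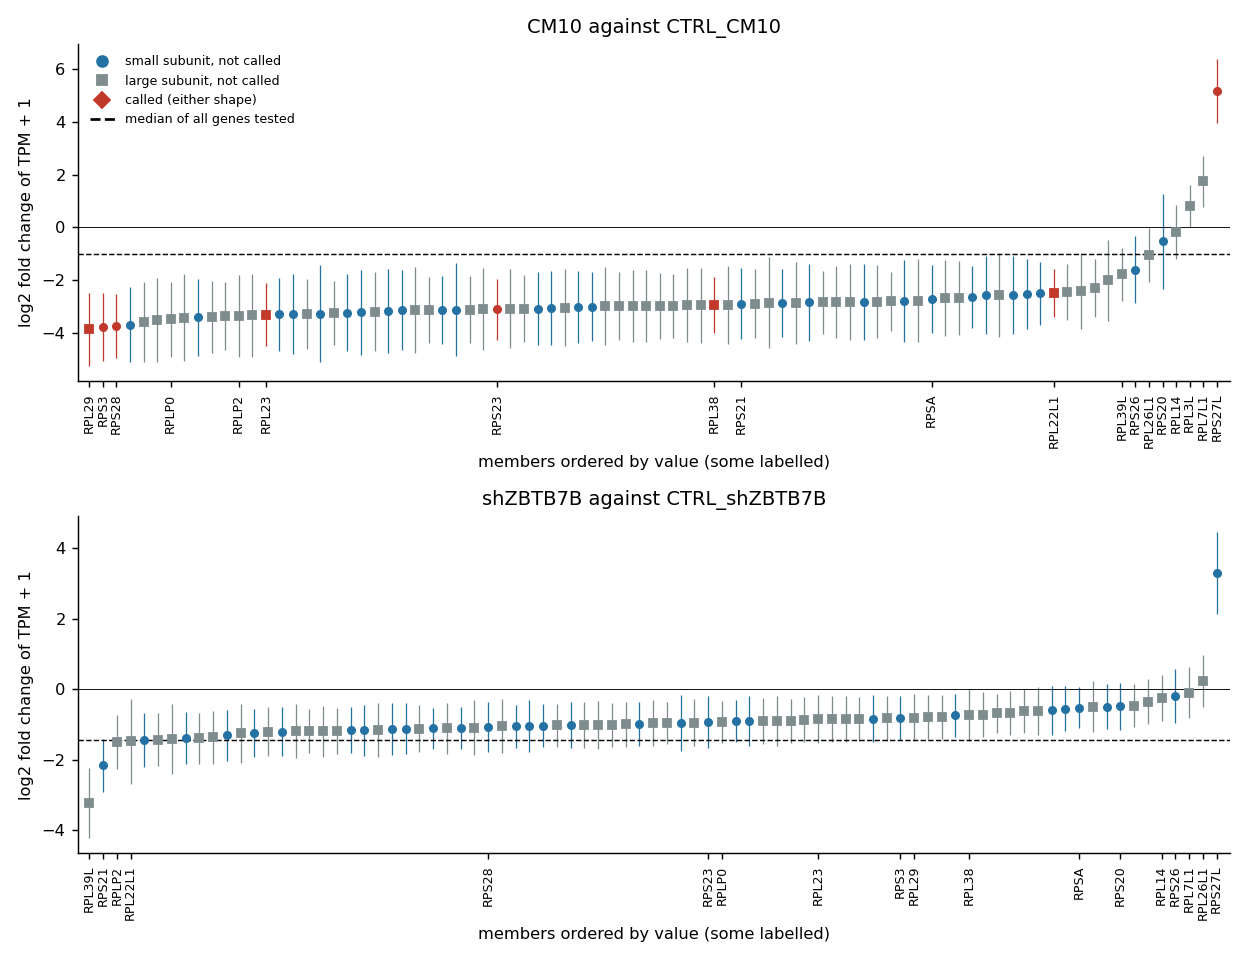
Each point is the limma log2 fold change of TPM + 1 of 1 member with its standard error, ordered by value, for CM10 (top) and shZBTB7B (bottom); circles are small subunit, squares large subunit, red marks an adjusted p under 0.05 and the dashed line is the median of all genes tested. Most members lie in a narrow band, around −2.99 with CM10 and −0.97 with shZBTB7B, and RPS27L stands apart at the right in both.

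RPS27L, a paralogue of RPS27 known as a target of p53, moved opposite to most members with CM10. It was at 762, 880 and 894 TPM in CM10 and at 103, 4.31 and 22.3 TPM in CTRL_CM10, so every CM10 library was above every control. Its log2 fold change was 5.17 (SE 1.21, limma adjusted p = 0.0060), and it was called under each of 13 other scalings, filters, models and left-out libraries, at an adjusted p of 7.79e-05 to 0.023. RPL7L1, a paralogue of RPL7 that takes part in the assembly of the large subunit, was at 47.3, 97.1 and 78.4 TPM against 26.2, 11.3 and 29.5 TPM. The groups did not overlap, but the difference of 1.74 (log2, SE 0.95) did not pass the test (adjusted p = 0.152). These were the only members with every CM10 library above every control, an arrangement found in 18.5% of all genes tested.

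A further 6 members overlapped between CM10 and its controls: RPS20, RPL14, RPS26, RPL26L1, RPL39L and RPL3L. RPS20, a small subunit head protein mutated in familial colon cancer, was at 2563, 1925 and 2038 TPM in CM10 and at 8483, 1251 and 2878 TPM in CTRL_CM10 (log2 fold change −0.53, SE 1.81, adjusted p = 0.822). RPL14, a large subunit protein, was at 47.1, 91.9 and 67.3 TPM against 148, 37.9 and 74.3 TPM (log2 fold change −0.17, SE 1.02, adjusted p = 0.899). In both, CTRL_CM10 replicate 1 was the highest library and CTRL_CM10 replicate 2 the lowest. RPS26, which sits at the mRNA exit channel, was at 139, 248 and 172 TPM against 1588, 181 and 588 TPM.

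The composition within the members' total was examined to set aside the share of TPM taken by other genes. The rank order of the 84 members was much alike from library to library, with Spearman coefficients of 0.922 to 0.979 among the 6 control libraries, given as a description over 84 genes that share a library. CM10 replicates 1 and 2 correlated with the controls at 0.829 to 0.926 and CM10 replicate 3 at 0.685 to 0.736. In the control libraries the highest share of a member was a median of 1.54 times its lowest, and 72 of 81 members above 0 in every library varied less than 2-fold. Over all 12 libraries the median was 2.52 and 11 members varied over 5-fold, led by RPS27L, RPL7L1, RPL26L1, RPL14, RPS26 and RPS20. RPL13A, a protein known for a separate role in silencing inflammatory mRNAs, varied least, by 1.28 times.

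RPS27, a zinc finger protein of the small subunit, was the highest member in all control libraries and in shZBTB7B replicates 2 and 3, at 4.78% to 8.04% of the members' total. In CM10 it held 3.78%, 3.39% and 4.41%, below each of its 3 controls. RPS20 was the highest in every CM10 library, at 8.29%, 5.90% and 18.8%, against 2.33%, 1.75% and 2.18% in CTRL_CM10. In shZBTB7B it held 5.13%, 2.41% and 1.89%, with replicates 1 and 2 above all controls, which were at 1.94% to 2.19%, and replicate 3 below them. RPS27L held 2.46%, 2.70% and 8.26% of the total in CM10, and 0.0060% to 0.028% in CTRL_CM10. RPL7L1 held 0.153%, 0.298% and 0.725% in CM10 against 0.0072% to 0.022%, and RPL14 0.152%, 0.282% and 0.622% against 0.041% to 0.056%. RPLP2 held 1.52%, 2.07% and 1.13% against 2.19% to 2.38%. For each of these members, named for their large moves of share or their fold change, the CM10 shares lay on 1 side of all controls. Shares are parts of a fixed total, so a rise of some members lowers the shares of the others. RPS20, RPS27L, RPL7L1 and RPL14 together held 11.1%, 9.18% and 28.5% of it in CM10 and 1.83% to 2.40% in CTRL_CM10. Whether RPS27, RPLP2 and other members lie below their controls apart from this was not tested. Over all 84 members, the shares of 8 lay above all controls, those of 13 below and those of 63 overlapped. Of all genes tested relative to the members' total, 35.5% lay above and 2.99% below.

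With each library scaled to the members' total, an alternative chosen after seeing the data, 3 members were called higher with CM10 and 0 lower by limma over all genes, of which 23.5% were called higher and 1.15% lower. The 3 were RPS27L (log2 fold change 7.94, SE 0.78), RPL7L1 (4.45, SE 0.81) and RPL14 (2.57, SE 0.72, adjusted p = 0.019). RPS20 had a log2 fold change of 2.23 and an adjusted p of 0.070. Leaving out single libraries gave an adjusted p of 0.011 to 0.057 for RPL14 and of 0.029 to 0.357 for RPS20, while RPS27L and RPL7L1 stayed under 0.05.

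**Figure D3:**
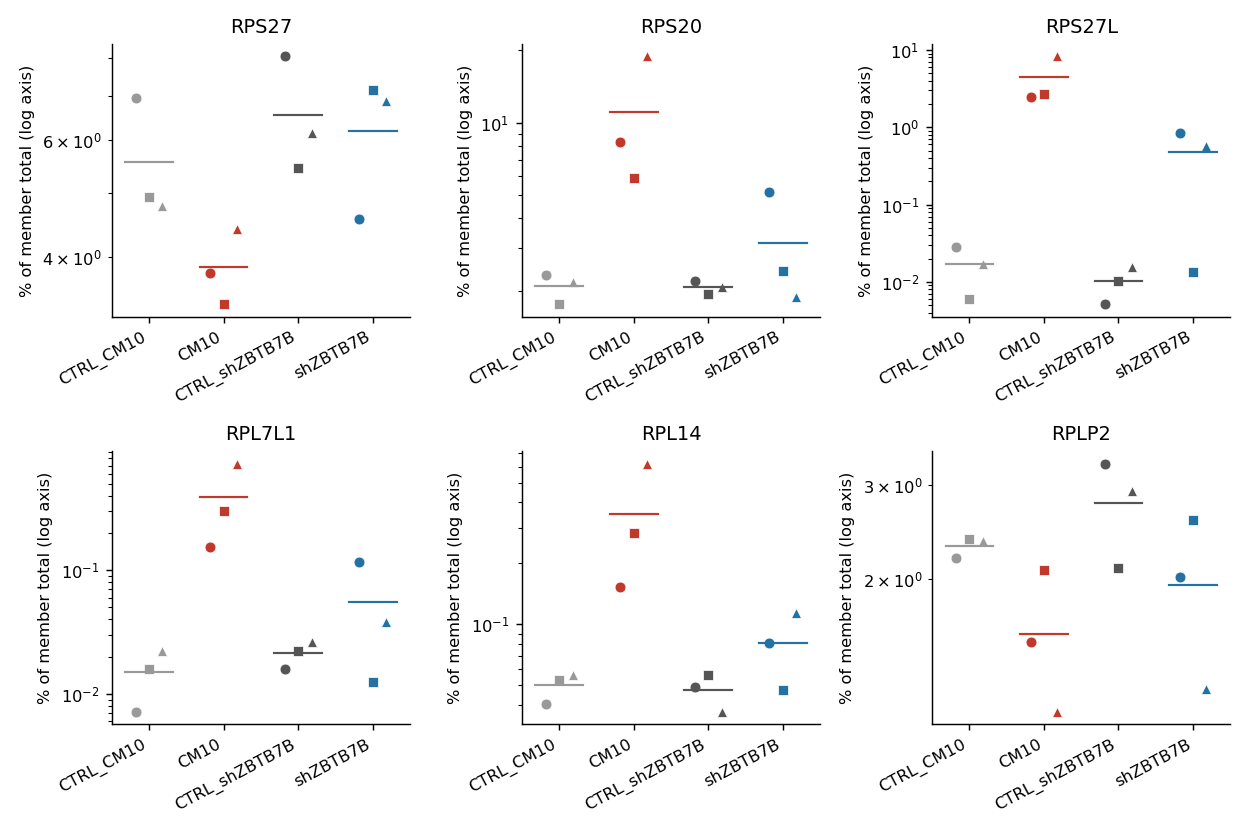
Each panel plots 1 member as a percent of the members' total in its library, on a log axis; circles, squares and triangles are replicates 1 to 3 and lines are group means. RPS20, RPS27L, RPL7L1 and RPL14 are higher in every CM10 library than in its controls, and RPS27 and RPLP2 are lower.

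The ratio of the 2 subunits was higher in every CM10 library than in any of its controls. The summed small subunit level was 0.888, 0.824 and 1.42 times the large subunit level in CM10 replicates 1 to 3. It was 0.721 to 0.814 in CTRL_CM10, 0.809 to 0.852 in shZBTB7B and 0.748 to 0.875 in CTRL_shZBTB7B. Without RPS20 and RPS27L the ratio was 0.685, 0.667 and 0.767 in CM10 and 0.684 to 0.836 in all other libraries. These 2 genes were left out because of their rise in share, so the second set of ratios is a description. The median log2 fold change with CM10 was −3.05 for the 32 small subunit members and −2.97 for the 52 large subunit members.

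For 7 paralogue pairs both genes are in the tables, and in each the partner named first carried most of the level in the controls. RPS27 was at 1170, 1106 and 477 TPM in CM10 and 25390, 3522 and 6316 TPM in CTRL_CM10. RPS27L therefore made up 39.4%, 44.3% and 65.2% of the pair in CM10 and 0.122% to 0.406% in CTRL_CM10. In shZBTB7B it made up 15.4%, 0.187% and 7.74%, and in CTRL_shZBTB7B 0.064% to 0.252%. RPL7L1 made up 14.0%, 23.4% and 43.1% of its pair with RPL7 in CM10 against 0.661% to 2.27%. RPL26L1 differed from RPL26 mainly in CM10 replicate 3, where it made up 30.4% of the pair, against 0.402% to 1.41% in the other 2 CM10 libraries. RPL36AL stayed at 31.4% to 35.1% of its pair with RPL36A in all CM10 and CTRL_CM10 libraries, and at 6.95%, 37.9% and 27.2% in shZBTB7B. RPL39L, RPL22L1 and RPL3L, the last known from skeletal muscle and heart, stayed under 25 TPM in every library. Shared 25-base words made up 6.98% of those of RPL39L, 6.13% of those of RPL36AL and 0.080% of those of RPL3L, and 0% of those of the other 4 paralogues. Many members also have pseudogenes of any type named after them in GENCODE. Among them were 133 for RPL21, 87 for RPL23A, 80 for RPL7A, 74 for RPSA, 62 for RPL31, 61 for RPL7 and 52 for RPL36A. How reads shared with pseudogenes were split is not given in the sources used here, so the levels of members that have them are uncertain.

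**Figure D4:**
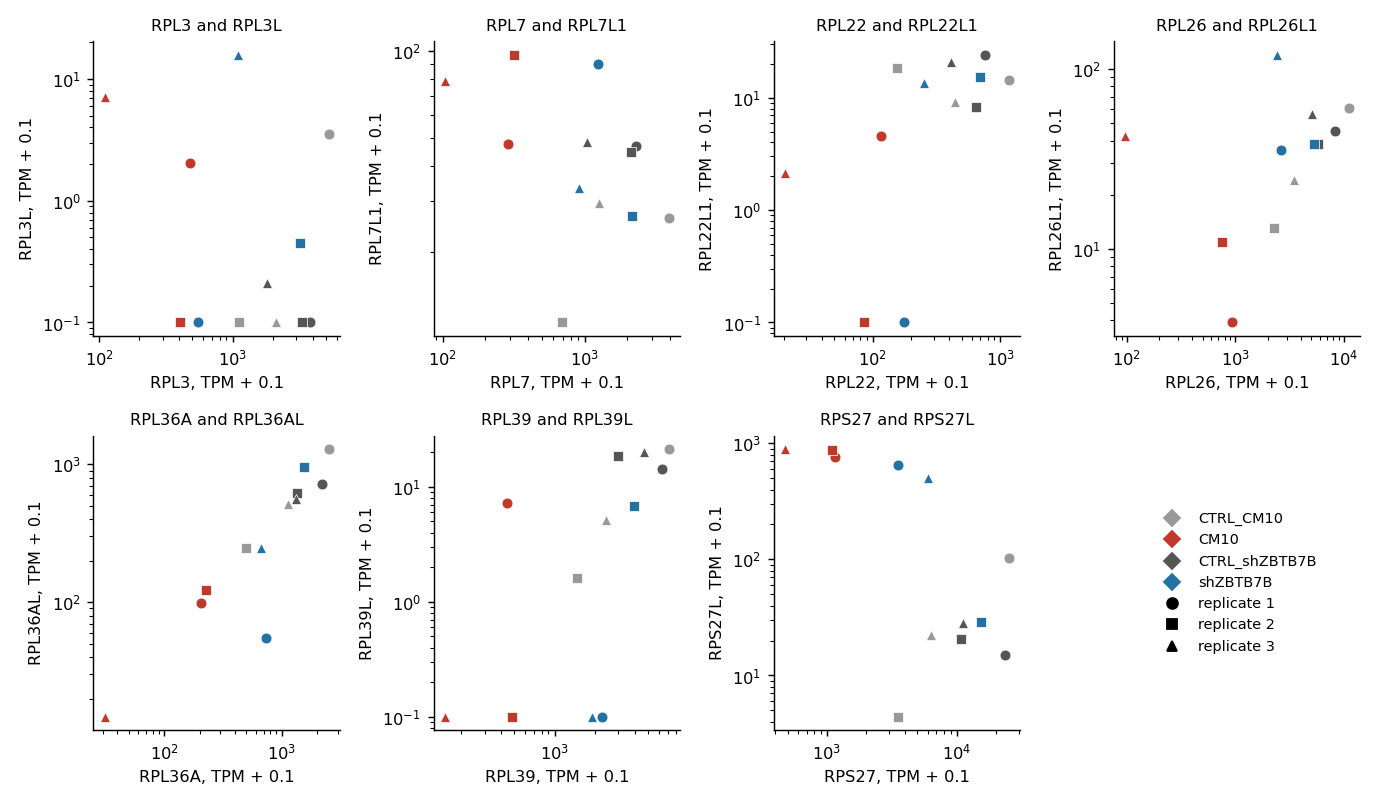
Each panel plots the paralogue (vertical axis) against its partner (horizontal axis) as TPM + 0.1 on log axes, 1 point per library; colours are groups and symbols replicates. RPL36A and RPL36AL fall along a common diagonal except in shZBTB7B replicate 1, while RPS27L is over 500 TPM in the 3 CM10 libraries and in shZBTB7B replicates 1 and 3 and at most 103 TPM in the others.

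In the comparison of shZBTB7B with CTRL_shZBTB7B, no member passed the test. Of 83 members tested, limma called 0 in either direction, against 11.0% of all 13665 genes called lower and 0.717% called higher. The calls over all genes were not stable. With quantile normalization or without a filter, 0 genes were called. The same held after removal of the MTRNR2L genes, or of genes over 10000 TPM other than the members. Leaving out any 1 library except shZBTB7B replicate 2 also gave 0. At an unadjusted p under 0.05 there were 3 members, RPL39L, RPS21 and RPS27L, and 38.9% of all genes tested. The median log2 fold change of the members was −0.97, nearer to 0 than the −1.45 of all genes tested. Only 10 members had all 3 shZBTB7B libraries below all 3 controls, an arrangement found in 42.4% of all genes tested. RPS27L was the only member above them in every library, as were 3.02% of all genes.

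RPS27L was at 645, 28.7 and 501 TPM in shZBTB7B and at 15.0, 20.3 and 28.4 TPM in CTRL_shZBTB7B. Replicate 2 lay just above the highest control, far from the other 2 libraries. The log2 fold change was 3.30 (SE 1.16, limma adjusted p = 0.079). RPS21, a small subunit protein, was at 404, 1993 and 545 TPM against 3872, 2189 and 4586 TPM (log2 fold change −2.15, SE 0.76, adjusted p = 0.079). RPL39L, the testis-enriched paralogue of RPL39, was at 0, 6.71 and 0 TPM against 14.2, 18.4 and 20.1 TPM (log2 fold change −3.22, SE 0.99, adjusted p = 0.061). Without shZBTB7B replicate 2, 53 members were called lower and 1 higher, RPS27L, while 40.0% of all genes were called lower and 11.4% higher.

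Neither RPS20 nor RPL14 differed from its controls beyond their spread in shZBTB7B. RPS20 was at 3974, 5173 and 1642 TPM against 6386, 3857 and 3762 TPM, and RPL14 at 62.9, 102 and 99.3 TPM against 143, 112 and 67.7 TPM. The log2 fold changes were −0.49 (SE 0.66) and −0.25 (SE 0.65). RPL7L1 had a log2 fold change of −0.11 (SE 0.72) and was highest of these 6 libraries in shZBTB7B replicate 1, at 90.0 TPM.

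The difference between the effect of CM10 and that of the hairpin was tested over all 12 libraries. Limma called 0 of 84 members and 0 of 15089 genes, and at an unadjusted p under 0.05 there were 0 members and 1458 genes (9.66%). The median difference of the members was −1.97 on the log2 scale, with a median standard error of 1.42, beside 0.63 for all genes. The largest member differences were those of RPL29 (−3.06, SE 1.49, adjusted p = 0.525) and RPS3 (−2.98, SE 1.52, adjusted p = 0.535). RPS27L differed by 1.87 (SE 1.72). The members are thus not shown to differ between the experiments.

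Lists of other parts of the translation apparatus were counted in the same fits, beside 18.3% of all genes called lower and 13.6% called higher with CM10. Of 35 translation factors, 9 fell (25.71%) and 0 rose at a limma adjusted p under 0.05, with a median log2 fold change of −2.48. EIF3G and EIF3C, subunits of the initiation factor that holds the small subunit, had log2 fold changes of −4.86 (SE 1.19) and −4.52 (SE 1.13). In CM10, EIF3G was at 39.6, 0 and 3.83 TPM and EIF3C at 24.1, 0 and 0 TPM, so both falls include values of 0. In CTRL_CM10, EIF3G was at 84.35 to 383 TPM and EIF3C at 48.1 to 93.8 TPM. Of 12 other mRNAs known for TOP tracts, 1 fell (8.33%), PABPC1, the cytosolic poly(A)-binding protein (log2 fold change −3.14, SE 1.12), and the median of the list was −2.93. Of 37 ribosome assembly factors tested, 12 fell (32.43%) and 6 rose (16.22%), with a median of −1.74. NOP58, a core protein of box C/D snoRNPs, fell by 4.48 on the log2 scale, while PNO1 and RRP1, which act in the maturation of pre-rRNA, had log2 fold changes of 7.88 and 4.13. NOP58 was at 4.19, 0 and 0 TPM in CM10 and at 10.5 to 193 TPM in CTRL_CM10. PNO1 was at 18651, 12564 and 15739 TPM in CM10, above every ribosomal protein there. In CTRL_CM10 it was at 1532, 5.53 and 27.2 TPM. What lies behind so high a level was not tested. Of 78 mitochondrial ribosomal proteins, 32 fell (41.03%) and 2 rose, with a median of −2.49. Of these 78, 4, 32 and 46 were listed at 0 in CM10 replicates 1 to 3, and 0 in each CTRL_CM10 library. Their summed levels overlapped, at 1864 to 2428 TPM in CM10 and 1141 to 3892 TPM in CTRL_CM10. With shZBTB7B, 3 translation factors fell, among them the scaffold EIF4G1 (log2 fold change −4.91, SE 1.08), and 3 assembly factors fell and 1 rose, again PNO1 (7.03, SE 1.72). These were 8.57% of the translation factors and 7.5% of the assembly factors called lower, beside 11.0% of all genes called lower and 0.717% called higher. EIF4G1 was at 0, 10.1 and 0 TPM in shZBTB7B and at 47.4 to 79.3 TPM in CTRL_shZBTB7B. PNO1 was at 14974, 90.6 and 9649 TPM against 11.9 to 22.3 TPM, with shZBTB7B replicate 2 far from the other libraries of its group. With quantile normalization 0 genes were called in this comparison, so none of these calls held there. Limma called 0 of the 12 other TOP mRNAs and 0 of the mitochondrial ribosomal proteins, with 2 of 12 and 14 of 78 at an unadjusted p under 0.05, beside 38.9% of all genes. For all genes the medians were −1.0 with CM10 and −1.45 with shZBTB7B.

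A repeat feature of the transcripts was examined in the members and in all genes. Words of 20 bases found in annotated coding transcripts of at least 300 genes, without words of simple sequence, were taken as repeat-derived, 584 in all. No repeat annotation was used, so words shared by large gene families could be among them. Genes whose transcripts held at least 20 of these words, 24.65% of the genes with a coding transcript and 21 of the 84 members, were called repeat-word genes. They took 74.4%, 75.7% and 80.4% of TPM in CM10 and 23.9%, 4.79% and 11.5% in CTRL_CM10. They took 68.0%, 13.0% and 61.7% in shZBTB7B and 16.2% to 16.8% in CTRL_shZBTB7B. Of the members, 53 held none of the words. RPS27L held most, with 258, followed by RPL14 with 199 and RPL7L1 with 180, and RPS20 held 105. RPL37, RPL15 and RPL27A held 150, 128 and 107 and had log2 fold changes of −2.46, −2.995 and −2.31 with CM10. Those of RPL14 and RPS20 were also negative, at −0.17 and −0.53. The median fold change was −2.82 for the 21 members with at least 20 words and −3.01 for the other 63. Across the 84 members the Spearman coefficient between the number of words and the log2 fold change was 0.267 with CM10. It was 0.281 for the length of the longest annotated transcript and −0.342 for the mean level, and all 3 are descriptions over genes that share libraries. The longest annotated transcript was 7136 bases for RPL14, 6110 for RPS27L and 4499 for RPL7L1. It was 7573 bases for RPL37, 7062 for RPS29 and 4535 for RPL27A, all longer than that of RPL7L1. With CM10 these last members had log2 fold changes of −2.46, −2.57 and −2.31, so a long transcript was not particular to the members apart from most. This feature was examined after the values had been seen, and its part in the results was not tested.

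**Figure D5:**
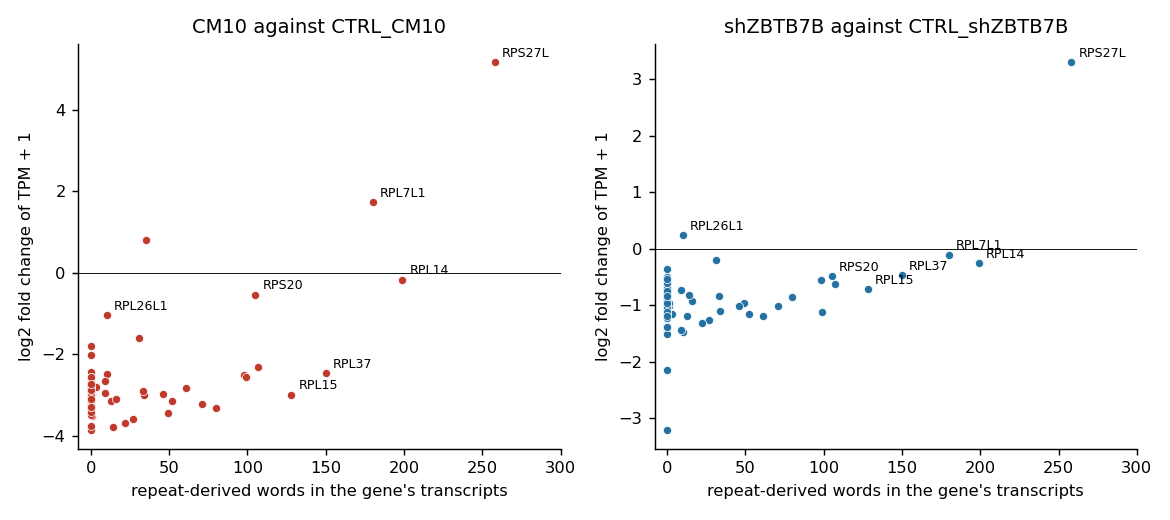
Each point is 1 member, for CM10 (left) and shZBTB7B (right). The horizontal axis is the number of words shared by at least 300 genes in its annotated transcripts, labelled repeat-derived words. The vertical axis is its log2 fold change of TPM + 1. RPS27L, with 258 words, is the highest member in both panels, and most members without such words lie together at the left.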

How the data were processed

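The authors extracted RNA with Trizol, captured it with probes, aligned reads with HISAT to the human genome build hg19 and estimated levels with RSEM. They deposited 1 table of TPM per experiment, with 6 libraries in each and no unit in the header. TPM was taken from the column sums and from the methods of the study. Depth is unknown, so no counting interval is given. Levels were tested as log2(TPM + 1) with limma 3.58.1 in R 4.3.3 (group as the only term, variance trend, two-sided, Benjamini-Hochberg over all genes tested). A fold change on this scale understates that of low genes. Genes were kept at TPM of at least 1 in at least 3 of 6 libraries (3 of 12 for the difference between the experiments), and called at an adjusted p under 0.05. Fits were also run on simulated data, drawn gene by gene from the means and spreads of the controls. Such data hold no shift shared by a library, so they cannot tell how the fits behave with one. Transcript words came from the GENCODE annotation lifted to GRCh37, and tables were handled in Python 3.11.15 with pandas 2.3.3. Alternatives were 3 other scalings, no filter, a smaller pseudocount (0.1), a block for the replicate number, robust empirical Bayes and leaving out each library. A scaling to the members' total was added after seeing the data. Members and gene lists were chosen with earlier results of these data known. Members named with values were those called, the 3 with the smallest p per direction, the 6 most abundant, RPLP0 to RPLP2 and RPSA, paralogue pairs, members mostly at 0 and the 3 largest moves of share per direction; some were left out for length, and 1 of the abundant members is not reported here. RPL13A, RPL14 and RPS26, and the members named only for their repeat words, transcript length or pseudogenes, were named with their values already known. The planned comparison of paralogue proteins was replaced by shared transcript words.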

Additional observations from a re-analysis of the deposited data

How the results depend on the processing

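With CM10, the members called lower numbered 7, and 76 with quantile normalization, 78 without MTRNR2L genes, 77 without genes over 10000 TPM, 1 without a filter, 1 with a pseudocount of 0.1 and 6 with robust empirical Bayes. In the last 3, 7.81%, 5.71% and 19.4% of all genes were called lower. Leaving out each library gave 0 to 27 lower and 1 higher, and a median of −3.55 to −2.31. With shZBTB7B, leaving out each library gave 0 to 53 lower, 0 to 1 higher and a median of −1.40 to −0.65, and the calls came only without shZBTB7B replicate 2. The other settings gave 0 calls with TPM or rescaled TPM. Scaled to the members' total, CM10 gave 3 higher and 0 lower, and 3 to 4 higher and 0 to 1 lower without single libraries, and the hairpin gave 0, or 1 higher and 1 lower without shZBTB7B replicate 2 (15.6% and 20.8% of all genes). The 4 higher came without CM10 replicate 3 (19.8% of all genes) and the 1 lower without CM10 replicate 1 (17.1%). For the difference between the experiments quantile normalization and leaving out each library, the alternatives run, gave 0 members, and the latter a median of −2.52 to −1.34. The cause of these changes was not tested. TPM carries no depth, so no limit from depth can be given beyond the number of genes above 0 in each library.

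The labels do not say whether replicate numbers pair the samples. Same-numbered libraries correlated at −0.079 to 0.028 in their deviations from the group means, and differently numbered ones at −0.112 to 0.151. These values cannot decide whether samples were handled as pairs, since the deviations within a group sum to 0. With the replicate number as a block, 5 members were called lower (24.2% of all genes) and 1 higher with CM10, and 0 with shZBTB7B.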
